A study of Mus musculus with 20 samples.

Results

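The young epidermis of mice that lack Wwox and p53 together was set against that of mice that lack Wwox alone, in 6 of the 20 bulk RNA sequencing libraries of the series. The 3 libraries labelled DKO are described as from K14cre;Wwoxfl/fl;p53fl/fl mice and the 3 labelled WKO as from K14cre;Wwoxfl/fl mice, so both groups carry the Cre transgene and the floxed Wwox alleles, and the floxed p53 alleles set them apart. All mice were 100 to 120 days old, and tdTomato-positive cells were sorted out of dissociated epidermis before 5 ng of RNA entered a stranded total RNA kit. A further 6 young libraries served as context: 3 from K14cre;p53fl/fl mice (PKO) and 3 labelled wild type (WT). The keratin 14 promoter drives Cre in basal keratinocytes and their descendants, and a cell of another type keeps its floxed alleles. The labels number biological replicates and do not say whether animals were pooled. They state neither the exons that are floxed nor the reporter's own driver. All 51123 genes of the table were considered, of which 16627 passed the filter on low counts over the 12 young libraries.

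p53, encoded by Trp53, is a transcription factor that is stabilised by DNA damage and other stress and then induces genes that stop the cell cycle, repair DNA or start cell death. It also induces Mdm2, the ubiquitin ligase that limits p53 itself, and, through the cell cycle inhibitor p21, it keeps many proliferation genes low. WWOX is a WW domain oxidoreductase that binds proline-rich motifs of several transcription factors and is counted among tumour suppressors. In the epidermis, basal keratinocytes divide on the basement membrane, and their daughters stop dividing, change keratins and build the cornified envelope as they move outwards.

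The targeted genes were examined first, because they test the labels. Levels are given as CPM, counts scaled to library size with the TMM factors of the 12 young libraries. Trp53 had 3.42, 3.35 and 21.3 CPM in DKO libraries 1, 2 and 3, against 41.8, 51.5 and 41.1 CPM in the WKO libraries, with 6.29, 22.3 and 21.2 CPM in PKO and 32.4, 33.9 and 41.8 CPM in WT. DKO libraries 1 and 2 lay far below every WKO library, while the library labelled DKO 3 kept 47.6% of the WKO mean, the level of PKO libraries 2 and 3. Over 3 libraries each the mean was 9.37 ± 10.4 CPM in DKO and 44.8 ± 5.83 CPM in WKO (SD, n = 3 each; log2 fold change -2.23 ± 0.69 SE with an adjusted p of 0.232 by the edgeR quasi-likelihood test). The log2 fold change was -3.69 ± 0.51 SE with an adjusted p of 0.0564 without the library labelled DKO 3, and the fit of the 5 remaining DKO and WKO libraries gave an adjusted p of 0.00337. The exact two-sided permutation test gave p = 0.1 for 3 against 3 libraries and p = 0.2 for 2 against 3, in each case the smallest value that design allows. Reads from exons outside the floxed part still count towards the gene, so a residual level does not measure protein.

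Wwox, deleted in both groups, had 0.957, 0.968 and 7.41 CPM in DKO libraries 1, 2 and 3, against 1.34, 0.145 and 1.21 CPM in WKO, 9.44, 8.34 and 8.46 CPM in PKO and 10.6, 9.63 and 9.13 CPM in WT. The library labelled DKO 3 therefore held 75.8% of the WT mean, while DKO 1 and 2 lay in the WKO range (exact two-sided permutation p = 0.6 for 3 against 3 and p = 1 for 2 against 3). By Wwox the library labelled DKO 3 goes against its label. By Trp53 it lay at the level of PKO 2 and 3, whose labels also state floxed p53, and below every WKO and WT library. Across all genes the library labelled DKO 3 and PKO 2 were the most alike of the 66 pairs of young libraries. Their Spearman correlation across genes was 0.983, above DKO 1 with DKO 2 at 0.971 and the library labelled DKO 3 with DKO 1 at 0.938. Their counts still differed beyond sampling noise, with a median chi-square of 1.60 per gene, the lowest of the 66 pairs, so they are not the same counts. Whether these 2 libraries share a source was not tested. Tests, gene lists and fold changes below are therefore given with all libraries and without the library labelled DKO 3, and the fit over the remaining young libraries is called the 11-library fit.

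**Figure D1:**
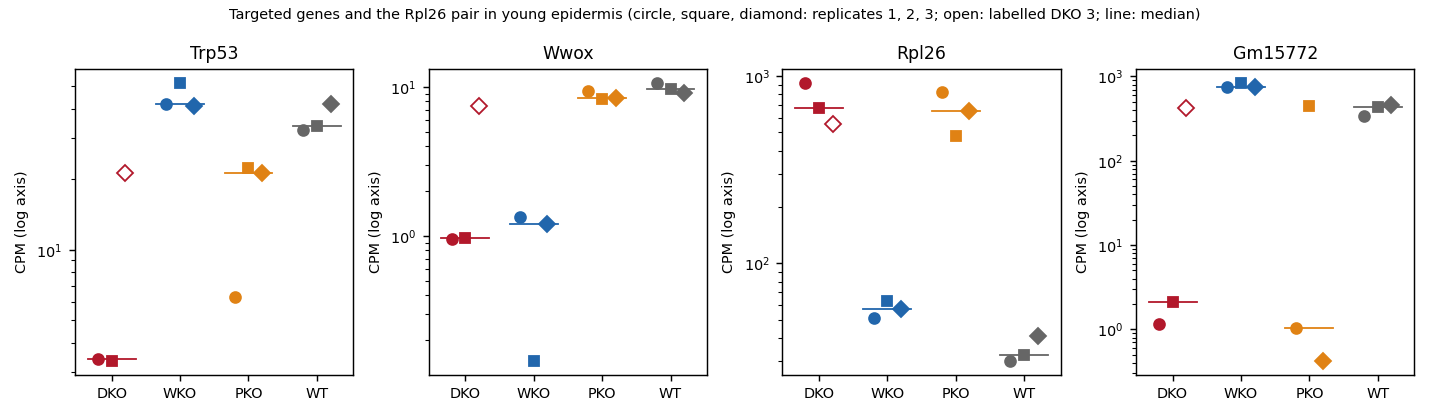
CPM on log axes of Trp53, Wwox, Rpl26 and its pseudogene copy Gm15772 in the DKO, WKO, PKO and WT young libraries, with 1 symbol per library, the median as a line and the library labelled DKO 3 as the open symbol. The library labelled DKO 3 lies at 21.3 CPM for Trp53, 7.41 CPM for Wwox and 427 CPM for Gm15772, beside PKO 2 at 22.3, 8.34 and 443 CPM and apart from DKO 1 and 2.

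The 6 libraries held 11930153 to 17199262 estimated counts each, of which 15.0% to 36.8% fell on mitochondrial ribosomal RNA. Keratinocyte keratins were abundant in all 6: Krt14 had 2291, 2749 and 2887 CPM in DKO and 2668, 5539 and 3586 CPM in WKO. Markers of other cells were unevenly spread. The 8 fibroblast markers summed to 112, 7.82 and 2956 CPM in DKO libraries 1, 2 and 3, against 1793, 34.0 and 181 CPM in WKO. The 18 markers of T and NK cells summed to 128, 218 and 437 CPM in DKO, against 1317, 132 and 70.2 CPM in WKO. The 9 Langerhans and dendritic cell markers summed to 171, 238 and 613 CPM in DKO, against 2435, 240 and 177 CPM in WKO. The library labelled DKO 3 thus stands apart by fibroblast RNA and WKO 1 by fibroblast, T cell and Langerhans cell RNA. The mammary markers, which include milk protein genes, summed to 3.72 to 71.5 CPM in DKO, against 35.3, 1538 and 47.7 CPM in WKO, so that WKO 2 stood out. In bulk samples, fewer cells of a type and less RNA per cell cannot be told apart.

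**Figure D2:**
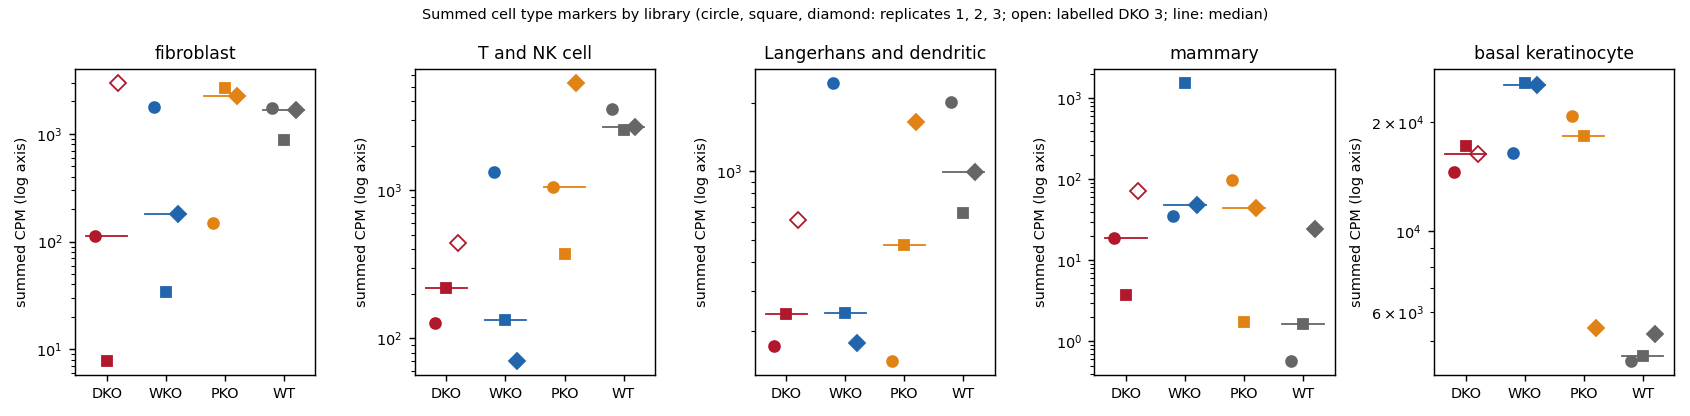
Summed CPM of 5 marker lists on log axes in the DKO, WKO, PKO and WT young libraries, with 1 symbol per library and the median as a line. The library labelled DKO 3 reaches 2956 CPM for fibroblast markers, where DKO 2 has 7.82 CPM, and WKO 1 reaches 2435 CPM for Langerhans and dendritic cell markers, where WKO 2 and 3 have 240 and 177 CPM.

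A single gene passed an adjusted p of 0.05 (edgeR quasi-likelihood test, Benjamini-Hochberg adjustment) among the 16627 genes when the spread was estimated over the 12 young libraries: 1 was higher, which is 0.00601% of genes, and 0 were lower, which is 0%. At an unadjusted p under 0.05 there were 2275. Without the library labelled DKO 3, 6 of 17305 genes were higher, which is 0.0347%, and 0, or 0%, were lower, with 2836 at an unadjusted p under 0.05. The count depends on whose spread is used. A fit of the 6 DKO and WKO libraries alone called 139 genes higher and 12 lower, 0.961% and 0.0830% of 14465, and the 5-library fit, the same without the library labelled DKO 3, called 344 higher and 74 lower, 2.28% and 0.491% of 15073. DESeq2 on the 12 libraries called 596. The median log2 fold change over all genes was -0.03, and -0.07 without the library labelled DKO 3. Because so few genes passed the main test, members are described by their values in each library and by whether the 3 DKO libraries overlap the 3 WKO libraries. Across all genes tested, 10.2% lay higher in every DKO library than in every WKO library and 13.9% lay lower. For DKO 1 and 2 against the 3 WKO libraries these shares were 18.7% and 22.4%.

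The gene that passed was Rpl26, a ribosomal protein of the large subunit, which falls outside the rule for named genes and is singled out after its values were seen. Rpl26 had 916, 673 and 553 CPM in DKO, against 51.3, 62.7 and 57.3 CPM in WKO (log2 fold change 3.68 ± 0.26 SE with an adjusted p of 0.000606, and 3.83 ± 0.26 SE with 0.00104 in the 11-library fit). It was as high in PKO, at 819.7, 482 and 648 CPM, against 30.2, 32.3 and 40.7 CPM in WT, where it was also the single gene called (log2 fold change 4.21). RefSeq lists a transcribed pseudogene, Gm15772, under the synonym Rpl26, and its level mirrored that of Rpl26. Gm15772 had 1.16, 2.08 and 427 CPM in DKO libraries 1, 2 and 3, against 758, 832 and 745 CPM in WKO, 1.05, 443 and 0.423 CPM in PKO and 340.4, 436 and 454 CPM in WT. The sum of the pair was 917, 675 and 980 CPM in DKO and 809, 895 and 803 CPM in WKO, so the groups overlapped. Rpl26 took 99.9%, 99.7% and 56.5% of that sum in DKO, against 6.34%, 7.01% and 7.14% in WKO, and 99.9%, 52.1% and 99.9% in PKO. The groups thus differed in how reads were divided between the 2 entries, and the level of Rpl26 itself is uncertain. The library labelled DKO 3 and PKO 2 were again the pair with intermediate shares.

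Rpl26 and Trp53 both lie on chromosome 11, with 27 protein-coding genes between them in the RefSeq order of GRCm38. Of the 50 protein-coding genes on either side of Trp53, 78 were tested. Leaving out Rpl26, 8 of 77 lay higher in every DKO library and 11 lower, beside the 10.2% and 13.9% of all genes, with a median log2 fold change of -0.07. With DKO 1 and 2 alone 15 of 77 lay higher and 18 lower, beside 18.7% and 22.4% of all genes, with an 11-library median of -0.18. Among these neighbours Kdm6b, a histone H3 demethylase gene 4 genes from Trp53, had 470.1, 484 and 354 CPM in DKO, against 186, 169 and 178 CPM in WKO (log2 fold change 1.33 ± 0.23 SE with an adjusted p of 0.0984, and 1.45 ± 0.24 SE with 0.0719 in the 11-library fit). Other pseudogenes stood at 0 in some libraries and well above it in others. The pseudogene Rps23-ps1 had 1025, 808 and 1094 counts in DKO and 0 in each WKO library, but also 1167, 888 and 233 counts in PKO and 0, 493 and 677 counts in WT. Gm29216 had 2760, 6325 and 5773 counts in DKO and 0 in each WKO library, with 0, 3320 and 0 counts in PKO and 267, 970 and 2819 counts in WT.

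The other genes that passed without the library labelled DKO 3 were Gm14636, Gm21897, Pi15, Dlgap4 and Zfp131. Zfp131, a zinc finger protein gene, had 54.8, 48.1 and 43.2 CPM in DKO, against 25.2, 24.1 and 22.1 CPM in WKO, with no overlap (log2 fold change 1.07 ± 0.13 SE with an adjusted p of 0.066). Its log2 fold change was 1.14 ± 0.14 SE with an adjusted p of 0.045 without the library labelled DKO 3. Pi15, a secreted peptidase inhibitor, had 20.4, 25.8 and 4.91 CPM in DKO, against 5.57, 5.30 and 4.38 CPM in WKO, so that the library labelled DKO 3 lay inside the WKO range (log2 fold change 1.78 ± 0.48 SE with an adjusted p of 0.179, and 2.21 ± 0.26 SE with an adjusted p of 0.0316 without the library labelled DKO 3). Dlgap4, a scaffold protein gene, had 98.9, 108 and 56.3 CPM in DKO, against 45.7, 43.2 and 47.6 CPM in WKO (log2 fold change 0.98 ± 0.21 SE with an adjusted p of 0.122, and 1.21 ± 0.14 SE with an adjusted p of 0.0316 without the library labelled DKO 3). In Zfp131, Pi15 and Dlgap4 the library labelled DKO 3 had the lowest DKO value. They were picked by the fit that leaves this library out, so its place in them does not test its label. By smallest p the rule also named Icam1, Suco, Fbxo30 and Ptp4a1 as higher. Icam1, an adhesion molecule that binds leukocytes, had 259, 236 and 173 CPM in DKO, against 36.4, 55.4 and 41.0 CPM in WKO (log2 fold change 2.37 ± 0.33 SE with an adjusted p of 0.0984, and 2.51 ± 0.35 SE with 0.0581 in the 11-library fit). Suco had 68.0, 60.8 and 66.1 CPM in DKO, against 30.7, 25.5 and 29.3 CPM in WKO, and Ptp4a1, a phosphatase, had 144, 109 and 122 CPM in DKO, against 60.9, 51.5 and 51.6 CPM in WKO. Lower by the same rule was Dbp, a clock-controlled transcription factor, with 27.5, 28.1 and 28.5 CPM in DKO, against 66.2, 97.4 and 71.0 CPM in WKO (log2 fold change -1.44 ± 0.26 SE with an adjusted p of 0.104, and -1.46 ± 0.32 SE with 0.0978 in the 11-library fit). Zbtb45, Zbtb8a, Rsad1 and LTO1 were lower in every DKO library too, with log2 fold changes of -1.06, -1.39, -1.46 and -0.82 and adjusted p values of 0.0984, 0.0984, 0.0984 and 0.104 (edgeR). In the 11-library fit these were -1.11, -1.39, -1.60 and -0.91, with adjusted p values of 0.0829, 0.0876, 0.0819 and 0.0819. Among the lowest p values without the library labelled DKO 3 was Psmc3ip, a meiotic recombination cofactor, with 2.94, 3.72 and 7.21 CPM in DKO, against 12.6, 17.8 and 12.3 CPM in WKO. Plcb4, Npr1 and St3gal2 were named as lower in the 11-library fit too, each with an adjusted p of 0.0719 (edgeR). With all libraries DKO and WKO overlapped for them, and the adjusted p values were 0.519, 0.39 and 0.355. The library labelled DKO 3 had 13.7, 9.62 and 18.1 CPM. These genes too were picked by the fit that leaves it out, so its place in them does not test its label.

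p53 target genes were split in direction. By smallest p in the 11-library fit the rule named Ccng1, Xpc, Ptp4a3 and Dcxr, all lower. The higher members described here are outside the rule and were picked with their values known. Of 40 genes in the list, 39 were tested and 0 passed the 12-library test, with 13 log2 fold changes above 0 and a median of -0.21, or -0.43 without the library labelled DKO 3. In every DKO library 8 lay higher than in WKO and 11 lower, beside 10.2% and 13.9% of all genes. Between DKO 1 and 2 alone and WKO, 8 lay higher and 18 lower, beside 18.7% and 22.4% of all genes. In the 6-library fit 3 were called, all higher, while the 5-library fit called 3 higher and 2 lower. Of all genes, the 6-library fit called 0.961% higher, and the 5-library fit 2.28% higher and 0.491% lower. Mdm2 had 125, 100.0 and 102 CPM in DKO, against 41.9, 43.0 and 46.5 CPM in WKO with no overlap (log2 fold change 1.35 ± 0.33 SE with an adjusted p of 0.149, and 1.39 ± 0.37 SE with 0.143 in the 11-library fit). Cdkn1a, which encodes p21, had 246, 198 and 267 CPM in DKO, against 140.2, 92.3 and 125 CPM in WKO (log2 fold change 1.03 ± 0.47 SE with an adjusted p of 0.366, and 0.93 ± 0.53 SE with 0.402 in the 11-library fit). Sesn2, a stress-induced regulator of mTORC1, had 77.5, 57.1 and 81.3 CPM in DKO, against 30.1, 28.1 and 24.2 CPM in WKO (log2 fold change 1.43 ± 0.39 SE with an adjusted p of 0.187, and 1.32 ± 0.44 SE with 0.211 in the 11-library fit). Pmaip1, which encodes the death protein Noxa, Btg2 and Plk2 were higher in every DKO library as well, with log2 fold changes of 1.37, 1.40 and 0.96, and 1.43, 1.53 and 0.91 in the 11-library fit. The 3 genes called in the 6-library fit were Mdm2, Sesn2 and Pmaip1, with adjusted p values of 0.0124, 0.0226 and 0.0367 (edgeR). They were called in the 5-library fit too, at 0.0157, 0.025 and 0.036, beside Ptp4a3 and Ccng1 as lower, at 0.0212 and 0.0458.

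Other targets were lower. Ccng1, a cyclin that feeds back on p53, had 37.5, 23.4 and 60.3 CPM in DKO, against 70.7, 68.0 and 77.0 CPM in WKO (log2 fold change -0.79 ± 0.28 SE with an adjusted p of 0.28). Its log2 fold change was -1.21 ± 0.23 SE with an adjusted p of 0.0819 without the library labelled DKO 3, which lay nearest to WKO. The rule picked Ccng1 from the fit that leaves this library out, so that place does not test its label. Xpc, a damage sensor of nucleotide excision repair, had 30.0, 33.3 and 36.9 CPM in DKO, against 47.4, 62.2 and 56.0 CPM in WKO (log2 fold change -0.69 ± 0.13 SE with an adjusted p of 0.107, and -0.77 ± 0.15 SE with 0.0842 in the 11-library fit). Bax, which permeabilises mitochondria in cell death, had 7.86, 6.10 and 10.3 CPM in DKO, against 15.9, 13.9 and 10.9 CPM in WKO. Aen, an exonuclease, had 12.99, 13.2 and 16.0 CPM in DKO, against 23.0, 25.9 and 20.2 CPM in WKO. Ephx1 and Dcxr, enzymes of epoxide and sugar metabolism, were lower in every DKO library, with log2 fold changes of -0.72 and -1.27, and -0.96 and -1.71 in the 11-library fit. Ptp4a3, a tyrosine phosphatase, had 3.76, 2.31 and 17.1 CPM in DKO, against 15.0, 16.9 and 20.7 CPM in WKO (log2 fold change -1.15 ± 0.65 SE with an adjusted p of 0.454, and -2.50 ± 0.49 SE with 0.0856 in the 11-library fit). Of the p53 family and its regulators, 17 genes, 16 were tested and 7 had log2 fold changes above 0, with a median of -0.03, and in the 11-library fit 10 of 17 with a median of 0.06. Trp63, the epidermal family member, had 693, 746 and 474 CPM in DKO and 516, 576 and 716 CPM in WKO, and the groups overlapped. Trp53bp2, which encodes the p53-binding protein ASPP2, had 153, 146 and 129 CPM in DKO, against 65.3, 92.4 and 91.2 CPM in WKO. Cdkn2a, source of the p53 activator ARF and of p16, was too low to be tested over 12 libraries, with 3.01, 2.38 and 0.301 CPM in DKO and 0, 0.145 and 0.453 CPM in WKO. It passed the filter without the library labelled DKO 3 only through DKO 1 and 2, where it is high. The log2 fold change there, 3.74 ± 1.04 SE with an adjusted p of 0.153 (edgeR), is therefore not independent of the filter. It also rests on values near the floor.

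**Figure D3:**
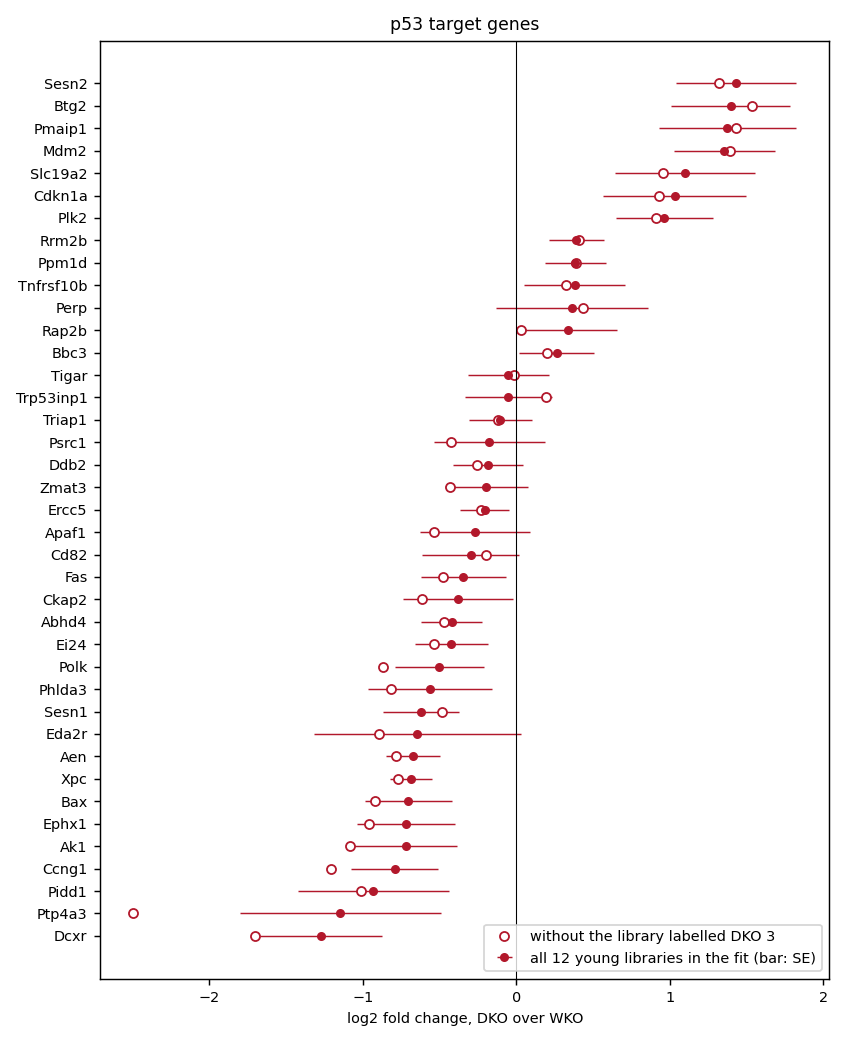
Log2 fold change of DKO over WKO for the 39 p53 target genes tested, with the standard error of the 12-library fit as a bar and the value without the library labelled DKO 3 as an open circle. Sesn2, Btg2, Pmaip1 and Mdm2 lie between 1.35 and 1.43, and Dcxr, Ptp4a3 and Pidd1 at -1.27, -1.15 and -0.93.

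The promoter of Cdkn1a is shown because it is the classic p53 target and, among the 31 target genes with an entry in the RefSeq promoter table, the only one in which a strict p53 motif was found. The window spans 250 bases before to 50 after the start (GRCm38.p6, chr17:29090729-29091028, plus strand, 1 of 2 starts listed, picked because its window holds the motif), and capitals mark the motif CATGNNNNNNCATG.
Cdkn1a: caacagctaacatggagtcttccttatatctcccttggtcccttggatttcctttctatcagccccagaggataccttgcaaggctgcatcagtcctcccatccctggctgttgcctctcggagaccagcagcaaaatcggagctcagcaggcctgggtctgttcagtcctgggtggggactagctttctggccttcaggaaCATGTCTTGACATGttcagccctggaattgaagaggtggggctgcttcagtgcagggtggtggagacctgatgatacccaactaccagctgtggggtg
The match lies 48 to 35 bases before the start, and the motif, which is its own reverse complement, is met on both strands. The motif occurs in 0.712% of all 32851 promoters in the table and in 0.833% of genes counted over any start. A match is a description of the letters, and p53 binding was not measured.

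Cell cycle genes were lower. All 40 were tested and 0 passed, but 39 had log2 fold changes below 0, with a median of -0.68, or -0.78 without the library labelled DKO 3 and -0.74 without WKO 1, against -0.03 over all genes. No overlap was seen for 22 of 40, all lower in DKO, beside the 13.9% of all genes, and for 27 of 40 with DKO 1 and 2 alone, beside 22.4%. Subunits of the replicative helicase were among them. Mcm7 had 25.9, 27.9 and 25.3 CPM in DKO, against 46.4, 56.7 and 43.9 CPM in WKO (log2 fold change -0.85 ± 0.29 SE with an adjusted p of 0.264, and -0.83 ± 0.35 SE with 0.279 in the 11-library fit), and was the 1 member called in the 6-library fit (adjusted p = 0.0431). The 5-library fit gave it an adjusted p of 0.0554 and called Plk1 alone, at 0.0468 (edgeR). Of all genes, 0.083% were called lower in the 6-library fit and 0.491% in the 5-library fit. Mcm5 had 12.2, 18.8 and 13.9 CPM in DKO, against 31.0, 44.8 and 24.2 CPM in WKO (log2 fold change -1.11 ± 0.42 SE with an adjusted p of 0.3, and -1.07 ± 0.50 SE with 0.323 in the 11-library fit), and Mcm2, Mcm3 and Mcm4 had log2 fold changes of -0.97, -1.05 and -0.63 with no overlap, and -0.95, -1.08 and -0.51 in the 11-library fit. Mki67, the proliferation marker Ki-67, had 47.5, 84.0 and 71.4 CPM in DKO, against 109, 128 and 99.6 CPM in WKO (log2 fold change -0.69 ± 0.35 SE with an adjusted p of 0.405, and -0.74 ± 0.41 SE with 0.396 in the 11-library fit). Among mitotic genes, Plk1, the polo-like kinase that drives mitotic entry, had 0.889, 0.819 and 2.40 CPM in DKO, against 4.23, 4.07 and 3.63 CPM in WKO (log2 fold change -1.51 ± 0.52 SE with an adjusted p of 0.272, and -2.18 ± 0.53 SE with 0.121 in the 11-library fit). Ccna2, cyclin A2, had 2.53, 4.09 and 7.41 CPM in DKO, against 12.3, 12.8 and 9.22 CPM in WKO. Cdc20, which activates the anaphase-promoting complex, had 4.72, 3.57 and 6.41 CPM in DKO and 7.82, 9.30 and 4.99 CPM in WKO, and the library labelled DKO 3 overlapped WKO 3. Cdc6, a replication licensing factor, was the single member with a log2 fold change above 0, at 0.17, and 0.31 in the 11-library fit, where Ccne1 was above 0 too, at 0.0165. Most of these transcripts were scarce, and many mitotic genes were near or under 10 CPM in all 6 libraries.

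Promoters of many cell cycle genes carry a CCAAT box. Many also carry the cell cycle homology region, and it is through this region that the p21 and DREAM pathway represses them. The windows of 2 genes are shown, both in the list and both holding TTTGAA and CCAAT in the RefSeq window (GRCm38.p6), with both motifs in capitals. Plk1 is chr7:122159185-122159484, plus strand, and Cdc20 is chr4:118437294-118437593, minus strand, each written 5′ to 3′ along the gene.
Plk1: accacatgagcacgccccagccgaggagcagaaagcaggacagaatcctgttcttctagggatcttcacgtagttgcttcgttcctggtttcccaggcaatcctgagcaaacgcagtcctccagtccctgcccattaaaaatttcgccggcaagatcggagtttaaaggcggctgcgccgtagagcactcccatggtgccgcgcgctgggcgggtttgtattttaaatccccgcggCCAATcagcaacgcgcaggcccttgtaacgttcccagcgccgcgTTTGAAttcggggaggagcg
Cdc20: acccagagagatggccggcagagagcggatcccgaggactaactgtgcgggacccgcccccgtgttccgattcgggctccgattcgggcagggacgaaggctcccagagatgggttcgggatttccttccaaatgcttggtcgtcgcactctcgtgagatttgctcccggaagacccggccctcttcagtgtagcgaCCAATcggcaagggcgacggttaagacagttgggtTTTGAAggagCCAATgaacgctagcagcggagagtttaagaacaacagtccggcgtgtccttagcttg
In Plk1, CCAAT begins 14 bases before the start and TTTGAA 30 bases after it. In Cdc20, CCAAT begins 53 and again 8 bases before the start, with TTTGAA 18 bases before it. Searched on both strands, TTTGAA was found in 15 of the 33 cell cycle genes with an entry, or 45.5%, against 20.2% of 27025 genes, and CCAAT in 25 of 33, or 75.8%, against 41.1%. Of the 31 p53 target genes with an entry, 6, or 19.35%, held TTTGAA and 19, or 61.3%, held CCAAT, so the higher share of CCAAT was not particular to cell cycle genes. Such a match says nothing about which factor is bound in these cells.

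Immediate early genes, which serum, growth factors and stress switch on without new protein synthesis, were higher as a group. All 23 were tested and 0 passed, but all 23 had log2 fold changes above 0, with a median of 1.19, 1.23 without the library labelled DKO 3 and 1.31 without WKO 1. In every DKO library 19 of 23 lay higher, beside the 10.2% of all genes, and 19 did so for DKO 1 and 2 alone, beside 18.7%. The 6-library fit called 5 and the 5-library fit 9, all higher, beside 0.961% and 2.28% of all genes. In the 11-library fit Klf2 was the 1 member not above 0, at -0.0018. Fosl1, an AP-1 subunit, had 424, 279.8 and 357 CPM in DKO, against 38.6, 44.8 and 38.6 CPM in WKO (log2 fold change 3.16 ± 0.97 SE with an adjusted p of 0.228, and 3.14 ± 1.06 SE with 0.217 in the 11-library fit; 6-library adjusted p = 0.0047 and 5-library adjusted p = 0.00673). Ier3 had 106, 80.2 and 56.8 CPM in DKO, against 25.0, 10.97 and 14.7 CPM in WKO (log2 fold change 2.30 ± 0.53 SE with an adjusted p of 0.128, and 2.49 ± 0.57 SE with 0.109 in the 11-library fit). Egr2, a zinc finger transcription factor, had 226, 144 and 114 CPM in DKO, against 62.2, 43.5 and 52.0 CPM in WKO (log2 fold change 1.65 ± 0.38 SE with an adjusted p of 0.123, and 1.85 ± 0.39 SE with 0.094 in the 11-library fit). Atf3, a stress-induced factor, had 1823, 1730.0 and 1022 CPM in DKO, against 550.3, 447 and 601 CPM in WKO (log2 fold change 1.55 ± 0.68 SE with an adjusted p of 0.358, and 1.77 ± 0.75 SE with 0.287 in the 11-library fit). Myc had 397, 293 and 210.2 CPM in DKO, against 131, 139 and 147 CPM in WKO (log2 fold change 1.15 ± 0.41 SE with an adjusted p of 0.278, and 1.34 ± 0.43 SE with 0.204 in the 11-library fit), and the nuclear receptor Nr4a1 had 525, 488 and 431 CPM in DKO, against 195, 109.7 and 143 CPM in WKO. Fos itself overlapped, with 2914, 2275 and 2034 CPM in DKO and 2643, 1278 and 1869.7 CPM in WKO, as did Ier2, Jund and Klf2. Fosl1 was also at 60.8, 320.0 and 10.6 CPM in PKO libraries 1, 2 and 3, so that PKO 2 reached the DKO level.

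Among the 139 genes called higher in the 6-library fit were Tnfaip3, Nfkbia and Nfkbiz, which were picked after their values were seen and belong to none of the lists. Tnfaip3, which encodes the ubiquitin-editing enzyme A20, had 1343, 1170.1 and 952 CPM in DKO, against 198, 324 and 246 CPM in WKO (12-library log2 fold change 2.21 ± 0.51 SE with an adjusted p of 0.128, and 2.33 ± 0.56 SE with 0.121 in the 11-library fit). Nfkbia, the inhibitor that holds NF-κB in the cytoplasm, had 1423, 1670.1 and 1092 CPM in DKO, against 367, 376 and 516 CPM in WKO (12-library log2 fold change 1.77 ± 0.42 SE with an adjusted p of 0.135, and 1.91 ± 0.46 SE with 0.117 in the 11-library fit), and Nfkbiz had 531, 521 and 384 CPM in DKO, against 114, 139 and 146 CPM in WKO. All 3 were higher in every DKO library, and the 5-library fit gave them adjusted p values of 0.0157, 0.0203 and 0.0106 (edgeR).

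Ligands of the EGF receptor, which keratinocytes make and answer, were higher while the receptors overlapped. The 13 genes of the list were tested and 0 passed, with 9 log2 fold changes above 0, a median of 0.77, or 0.79 in the 11-library fit, and 6 higher in every DKO library, beside 10.2% of all genes. For DKO 1 and 2 alone 7 lay higher and 1 lower, beside 18.7% and 22.4%. Ereg, epiregulin, had 24.8, 9.68 and 10.8 CPM in DKO, against 1.55, 0.581 and 1.284 CPM in WKO (log2 fold change 3.75 ± 1.02 SE with an adjusted p of 0.186, and 3.94 ± 1.11 SE with 0.158 in the 11-library fit). Epgn, epigen, had 46.2, 39.7 and 65.8 CPM in DKO, against 10.01, 15.8 and 9.82 CPM in WKO (log2 fold change 2.13 ± 0.80 SE with an adjusted p of 0.293, and 1.89 ± 0.87 SE with 0.318 in the 11-library fit). These 2 were called in the 6-library fit, with adjusted p values of 0.0308 and 0.0264 (edgeR). The 5-library fit called them at 0.0298 and 0.0235, with Tgfa and Hbegf, at 0.0207 and 0.036 (edgeR). Of all genes, 0.961% were called higher in the 6-library fit and 2.28% in the 5-library fit. Tgfa had 37.0, 25.1 and 12.1 CPM in DKO, against 5.07, 7.78 and 7.55 CPM in WKO, Areg, amphiregulin, had 94.4, 43.1 and 65.9 CPM in DKO, against 24.5, 11.3 and 26.1 CPM in WKO, and Hbegf had 163, 134 and 115 CPM in DKO, against 73.9, 49.8 and 64.9 CPM in WKO. The feedback inhibitor Errfi1 had 149, 132 and 138 CPM in DKO, against 88.7, 69.9 and 90.9 CPM in WKO. Egfr had 166, 165 and 174 CPM in DKO and 161, 164 and 203 CPM in WKO, and Erbb2 and Erbb3 overlapped too.

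Genes of keratinocyte differentiation were higher in DKO. Of 34 genes written, 31 were tested and 0 passed, with 30 log2 fold changes above 0 and a median of 1.07, 1.06 without the library labelled DKO 3 and 1.04 without WKO 1. In every DKO library 23 lay higher and 1, Tgm3, lower, beside 10.2% and 13.9% of all genes. Taking DKO 1 and 2 alone, 25 lay higher and 1 lower, beside 18.7% and 22.4%. The 6-library fit called 2 and the 5-library fit 5, all higher, beside 0.961% and 2.28% of all genes. Asprv1, a protease that processes profilaggrin, had 149.6, 70.5 and 51.6 CPM in DKO, against 5.57, 8.36 and 9.67 CPM in WKO (log2 fold change 3.56 ± 0.79 SE with an adjusted p of 0.123, and 3.84 ± 0.84 SE with 0.0987 in the 11-library fit; 6-library adjusted p = 0.0226 and 5-library adjusted p = 0.0154). Flg, filaggrin, had 174, 22.4 and 11.7 CPM in DKO, against 1.41, 5.74 and 6.496 CPM in WKO, with DKO 1 far above the others. Tgm1, the transglutaminase that crosslinks the envelope, had 28.6, 14.7 and 8.42 CPM in DKO, against 4.23, 5.01 and 4.53 CPM in WKO (log2 fold change 1.94 ± 0.46 SE with an adjusted p of 0.134, and 2.26 ± 0.41 SE with 0.0819 in the 11-library fit), and Ivl, involucrin, had 66.2, 31.7 and 20.7 CPM in DKO, against 6.41, 8.28 and 18.3 CPM in WKO. Grhl3, a transcription factor of barrier formation, had 232, 158 and 166 CPM in DKO, against 60.5, 51.2 and 50.3 CPM in WKO (log2 fold change 1.82 ± 0.67 SE with an adjusted p of 0.292, and 1.88 ± 0.75 SE with 0.269 in the 11-library fit; 6-library adjusted p = 0.0141 and 5-library adjusted p = 0.016). Of the early keratins, Krt10 had 10463, 7714 and 6325 CPM in DKO, against 5775, 4438 and 5643 CPM in WKO, and its partner Krt1 overlapped at 2262, 1998 and 2149 CPM in DKO and 2289, 1859 and 1759 CPM in WKO. Tgm3 had 14.2, 13.5 and 10.7 CPM in DKO, against 20.9, 31.5 and 28.6 CPM in WKO (log2 fold change -1.04 ± 0.37 SE with an adjusted p of 0.279, and -0.93 ± 0.43 SE with 0.315 in the 11-library fit).

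Keratins and small proline-rich proteins of wounded epidermis were higher as well, with exceptions. Of 23 genes written, 17 were tested and 0 passed, with 13 log2 fold changes above 0, a median of 1.33 and 8 higher in every DKO library, beside 10.2% of all genes. In the 11-library fit the median was 1.40 over 18 genes, and for DKO 1 and 2 alone 10 lay higher, beside 18.7%. The 6-library fit called 2 and the 5-library fit 4, all higher, beside 0.961% and 2.28% of all genes. Sprr1a had 507, 202 and 264 CPM in DKO, against 20.6, 35.03 and 25.1 CPM in WKO (log2 fold change 3.63 ± 0.84 SE with an adjusted p of 0.128, and 3.75 ± 0.92 SE with 0.124 in the 11-library fit), and Sprr1b 33.1, 8.71 and 21.4 CPM in DKO, against 0.211, 0.872 and 0.227 CPM in WKO. Krt16, a keratin of wound edge keratinocytes, had 295, 234 and 207 CPM in DKO, against 12.3, 50.5 and 12.2 CPM in WKO (log2 fold change 3.34 ± 1.01 SE with an adjusted p of 0.218, and 3.44 ± 1.11 SE with 0.203 in the 11-library fit), and Krt17 had 2790.5, 1814 and 1083 CPM in DKO, against 619, 679.9 and 473 CPM in WKO. Krt6a, the type II keratin that pairs with Krt16, overlapped at 40.6, 61.9 and 11.8 CPM in DKO and 12.1, 62.0 and 19.7 CPM in WKO. Keratin and Sprr genes have close relatives, between which the authors' counting may have split reads. The alarmins S100a8 and S100a9 stayed below 1 CPM in all 6 libraries.

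Basal keratinocyte and sebaceous genes leaned the other way. All 15 basal genes were tested and had log2 fold changes below 0, with a median of -0.46, but 2 of 15, Krt15 and Cd151, lay lower in every DKO library, a share near the 13.9% of all genes. In the 11-library fit the median was -0.49, with 14 of 15 below 0, and for DKO 1 and 2 alone 4 lay lower, beside 22.4%. Krt15 had 3383, 3154 and 3358 CPM in DKO, against 4005, 4525 and 5482 CPM in WKO, while Krt5 overlapped at 3108, 3485 and 3663 CPM in DKO and 3035, 6633 and 4835 CPM in WKO. Of the 14 sebaceous genes tested, 13 had log2 fold changes below 0, with a median of -1.46, and 5 lay lower in every DKO library, beside 13.9% of all genes. In the 11-library fit the median was -1.58, and for DKO 1 and 2 alone 6 lay lower, beside 22.4%. Soat1, which esterifies cholesterol, had 30.2, 13.4 and 29.4 CPM in DKO, against 66.1, 82.3 and 57.7 CPM in WKO (log2 fold change -1.46 ± 0.40 SE with an adjusted p of 0.185, and -1.62 ± 0.47 SE with 0.166 in the 11-library fit). Mc5r, the melanocortin receptor of sebocytes, had 6.15, 2.38 and 6.81 CPM in DKO, against 16.2, 25.6 and 19.8 CPM in WKO (log2 fold change -1.97 ± 0.66 SE with an adjusted p of 0.263, and -2.23 ± 0.80 SE with 0.231 in the 11-library fit). Far2, which makes wax alcohols, had 21.3, 5.29 and 17.4 CPM in DKO, against 27.6, 111 and 68.7 CPM in WKO. The 1 sebaceous gene called in the 6-library fit was Pparg, the lipid-synthesis regulator, with 4.24, 2.61 and 6.21 CPM in DKO, against 19.0, 19.3 and 19.9 CPM in WKO (adjusted p = 0.0387), and the 5-library fit called Pparg and the desaturase gene Fads2, at 0.0164 and 0.0352 (edgeR). Of all genes, 0.083% were called lower in the 6-library fit and 0.491% in the 5-library fit.

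**Figure D4:**
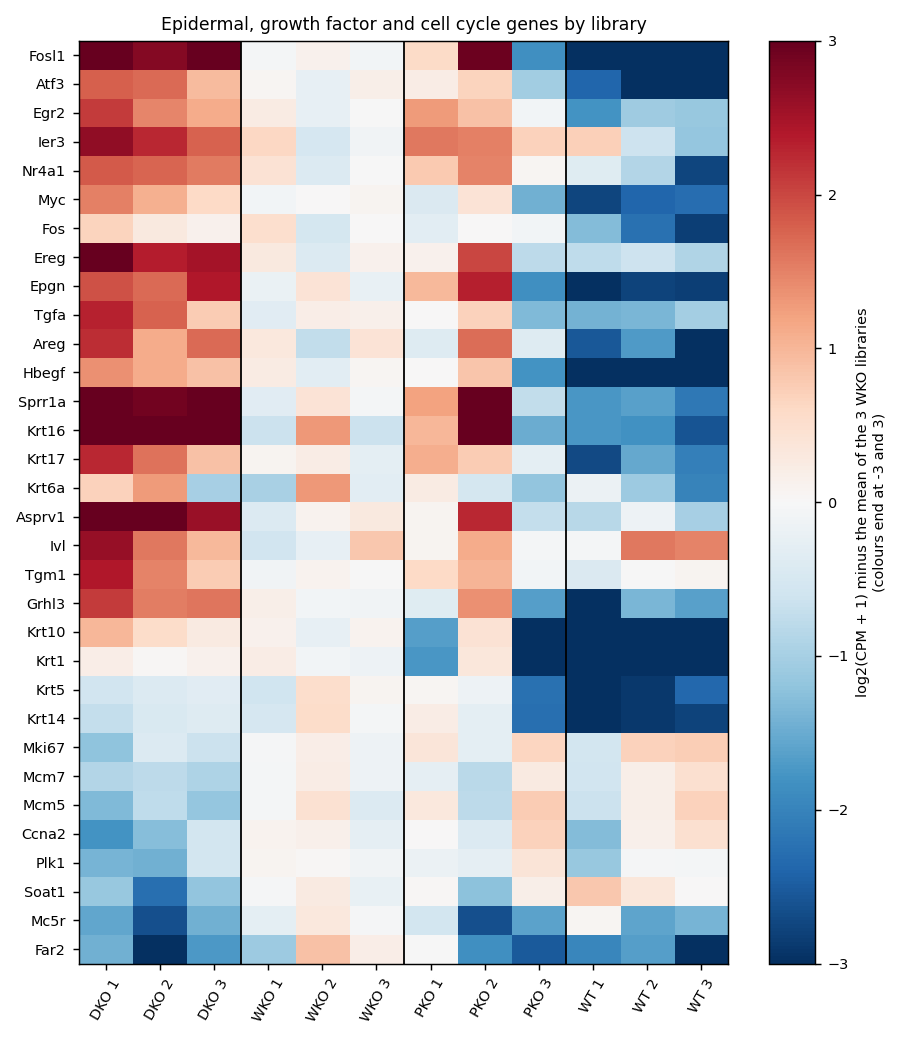
Log2(CPM + 1) minus the mean of the 3 WKO libraries for 32 genes named in the text, in the DKO, WKO, PKO and WT young libraries from left to right, with colours ending at -3 and 3. Fosl1, Sprr1a and Krt16 are high in all 3 DKO libraries and in PKO 2, and Krt5 and Krt14 are low in PKO 3 and the WT libraries.

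Mesenchymal genes and fibroblast markers changed direction with the library labelled DKO 3. The 8 fibroblast markers had a median log2 fold change of 0.49, but -4.74 without the library labelled DKO 3 and 3.59 without WKO 1. The 22 mesenchymal effectors had a median of -0.01, but -1.82 without the library labelled DKO 3 and 0.96 without WKO 1, and of the 10 transcription factors of epithelial-mesenchymal transition, the 8 tested had a median of 0.17, and the 9 tested without the library labelled DKO 3 one of -1.96, or 1.72 without WKO 1. Dcn, decorin, had 3.76, 3.201 and 308 CPM in DKO libraries 1, 2 and 3, against 112, 8.94 and 22.1 CPM in WKO, so that the library labelled DKO 3 and WKO 1 alone held most of it. Fbn1, fibrillin, had 1.30, 0.893 and 151 CPM in DKO, against 88.6, 2.98 and 4.003 CPM in WKO, and Zeb2 had 1.23, 1.27 and 32.3 CPM in DKO, against 25.2, 1.67 and 4.003 CPM in WKO. T and NK cell markers had a median of -0.86, or -1.34 without the library labelled DKO 3, but 1.34 without WKO 1, and Langerhans and dendritic cell markers one of -1.41, or -1.93 without the library labelled DKO 3, but 0.89 without WKO 1. Leaving out the library labelled DKO 3 and WKO 1 together, the medians were -1.81 for fibroblast markers, 0.80 for T and NK cell markers and 0.23 for Langerhans and dendritic cell markers. With both libraries left out the medians were 1.35 for immediate early genes, 1.15 for differentiation, -0.78 for the cell cycle, -0.62 for basal genes and -1.80 for sebaceous genes. Hair follicle genes changed direction, with a median of -0.22, or -0.15 without the library labelled DKO 3, but 0.21 without WKO 1 and 0.43 without both.

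**Figure D5:**
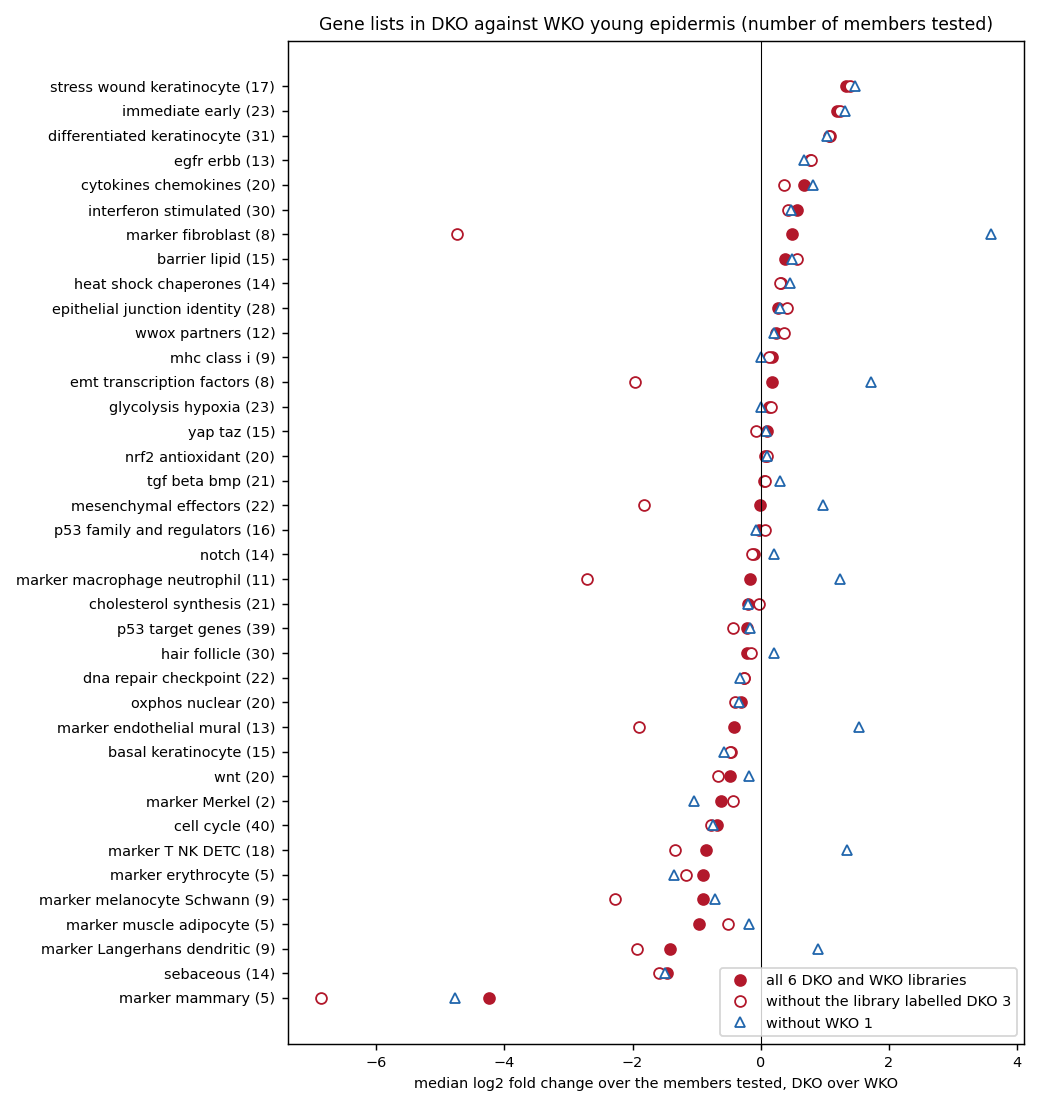
Median log2 fold change of DKO over WKO for each gene list, with the number of members tested, in the fit with all libraries, without the library labelled DKO 3 and without WKO 1. Immediate early, wound and differentiation lists lie between 1.04 and 1.47 and the cell cycle list between -0.68 and -0.78 under all 3, while fibroblast markers span -4.74 to 3.59.

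Whether the difference between DKO and WKO is larger or smaller than that between PKO and WT was tested as an interaction over the 12 young libraries. PKO libraries 2 and 3 kept 22.3 and 21.2 CPM of Trp53, against 32.4, 33.9 and 41.8 CPM in WT, and the test is read with that limit. No gene passed (0 of 16627 by edgeR at an adjusted p of 0.05), with 3382 at an unadjusted p under 0.05, 1326 passing by DESeq2 and 708 by limma. Without the library labelled DKO 3 edgeR called 2 genes, and without PKO 3 it called 1199. The summed level of the basal keratinocyte genes differed between the comparisons, at 14564 to 17199 CPM in DKO and 16402 to 25530 CPM in WKO, against 5440.2 to 20703 CPM in PKO and 4407 to 5229.7 CPM in WT. For Cdkn1a the log2 fold change was 1.03 for DKO over WKO and 1.40 for PKO over WT, for Mki67 -0.69 and -0.15, and for Fosl1 3.16 and 5.82. In the 11-library fit DKO over WKO was 0.93 for Cdkn1a, -0.74 for Mki67 and 3.14 for Fosl1. The part of this marker level in these differences was not tested.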

How the data were processed

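RNA of tdTomato-positive epidermal cells was sequenced in 3 libraries labelled DKO and 3 labelled WKO, with 3 PKO and 3 WT libraries of the same age as context. The authors deposited 1 table of estimated counts per gene for the 20 libraries. Named in the submitters' processing notes, without role or order, are Salmon 0.13.1, Trim Galore 0.4.1, DESeq2 1.28.1, FastQC 0.11.5 and build mm39. The use of the kit's molecular identifiers in counting is not stated in the labels.

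Counts were used as deposited. Genes were filtered with filterByExpr, scaled by TMM and tested in edgeR 4.0.16 (R 4.3.3) by the quasi-likelihood F test with group as the factor, over the 12 young libraries and again without the library labelled DKO 3, with Benjamini-Hochberg adjustment over all genes and a threshold of 0.05. The fit was tested on simulated data. Alternatives were DESeq2 1.42.0, voom with quality weights in limma 3.58.1, other scalings and filters, a fit of the DKO and WKO libraries alone, and leaving out libraries. Medians without WKO 1 were added after its markers were seen. Gene symbols came from GENCODE for 48246 of 51123 IDs, and promoters from RefSeq. CPM are per gene and not per length, so levels of different genes are not compared. P-values measure the spread between these libraries, and nothing is known of litters or batches.

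The comparison, its gene lists and the set of named genes were chosen with earlier results of these data known. The rule named up to 12 genes each way past the threshold with no overlap and at least 5 CPM. Where fewer than 5 passed it named the 5 of smallest p, and it named up to 4 members of each list. Further list members, such as Mdm2, Cdkn1a, Sesn2, Fosl1, Krt16 and Mcm7, are outside the rule and were picked with their values known. Not every gene that the rule named is described. No gene set test was run: lists are given by counts and medians beside those of all genes. The libraries held 11930153 to 17199262 counts, and genes under 10 CPM rest on the fewest of them.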

Additional observations from a re-analysis of the deposited data

Results flagged for a closer look

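A pair of genes differed between the Wwox-deleted and Wwox-intact backgrounds by the interaction test once the library labelled DKO 3 was left out (edgeR, adjusted p under 0.05). On the intact side PKO 2 and 3 kept 22.3 and 21.2 CPM of Trp53, which limits this test. Gm14636, a processed transcript on chromosome X, had an interaction log2 fold change of 5.44, with 8.55, 11.91 and 1.60 CPM in DKO, against 0.423, 0.436 and 0.604 CPM in WKO, and 1.11, 1.72 and 1.004 CPM in PKO, against 3.68, 2.27 and 1.83 CPM in WT. Gm21897, a predicted protein-coding gene on chromosome 16, had an interaction log2 fold change of 3.21, with 40.1, 61.2 and 16.0 CPM in DKO, against 11.8, 8.36 and 11.8 CPM in WKO, and 11.6, 14.1 and 13.3 CPM in PKO, against 26.2, 28.8 and 18.4 CPM in WT. For both genes the library labelled DKO 3 lay nearer to WKO than DKO 1 and 2 did. Both were picked by the fit that leaves this library out, so its place in them does not test its label.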

How the results depend on the processing

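In the comparison of DKO with WKO over 12 libraries edgeR called 1 gene. RLE scaling and a minimum of 10 CPM called 2 each, no filter 42, DESeq2 596, limma voom 405 and a fit of the DKO and WKO libraries alone 151. Leaving out 1 library at a time gave 1 to 6, with 6 without the library labelled DKO 3 and 2 without WKO 1 or without WKO 3. Without the library labelled DKO 3 the count of 6 became 157 with no filter, 1012 by DESeq2, 625 by voom, 418 with the DKO and WKO libraries alone and 1 against a log2 change of 1. Leaving out a further library gave 1 to 4, with 2 without DKO 1 and 1 without DKO 2, WKO 1 or WKO 2, and where 1 DKO library was left it was assumed to vary like the other groups. For the interaction 0 became 13 with no filter, 1326 by DESeq2 and 708 by voom. Leaving out 1 library gave 0 to 1199, with 2 without the library labelled DKO 3, 1199 without PKO 3 and 1 without WT 3. The cause of these differences in count was not tested.

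With the replicate number as a block edgeR called 1 gene over 12 libraries, 1 without the library labelled DKO 3 and 0 for the interaction. Same-numbered DKO and WKO libraries deviated from their group means with correlations of -0.33, 0.06 and -0.29. The highest correlation, 0.37, was that of the library labelled DKO 3 with WKO 1. With 3 libraries per group such values cannot decide whether same-numbered libraries share a litter or batch, and the labels state no pairing.

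Without the library labelled DKO 3 the log2 fold change turned negative for Twist1 (-7.13), Zeb2 (-3.01), Sparc (-2.56), Fbn1 (-4.82), Lyz2 (-4.27), C1qc (-3.54), Pdgfrb (-4.52), Dcn (-3.74), Lum (-6.47), Pdgfra (-3.97) and Col1a2 (-4.40). Kdm5d, a Y-linked gene, had 0.401 to 1.12 CPM in DKO and 0.436 to 1.27 CPM in WKO. Its log2 fold change turned to 0.019 under RLE, 0.016 under DESeq2 and 0.25 without the library labelled DKO 3. The 5 sex-linked genes listed summed to 1038, 1601 and 606 CPM in DKO, against 462, 426 and 926 CPM in WKO, and the groups overlapped. The part of sex in the differences was not tested. RLE moved the median of all genes to 0.00. Many cell cycle and repair genes lie under 10 CPM and rest on few counts.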

Other observations

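Genes of the respiratory chain and of DNA repair were lower in DKO. Of 23 nuclear genes of oxidative phosphorylation, 20 were tested and 0 passed, with 17 log2 fold changes below 0, a median of -0.31, or -0.39 in the 11-library fit, and 11 lower in every DKO library, beside 13.9% of all genes. For DKO 1 and 2 alone 12 lay lower, beside 22.4%. Uqcrc2, a subunit of complex III, had 35.7, 29.9 and 36.5 CPM in DKO, against 45.6, 54.8 and 49.2 CPM in WKO (log2 fold change -0.51 ± 0.14 SE with an adjusted p of 0.192, and -0.57 ± 0.17 SE with 0.168 in the 11-library fit, edgeR), and Sdha, a subunit of complex II, had 81.2, 63.0 and 81.9 CPM in DKO, against 105, 106 and 99.4 CPM in WKO. Of 24 DNA repair and checkpoint genes, 22 were tested and 0 passed, with 19 below 0, a median of -0.26, or -0.27 in the 11-library fit, and 11 lower in every DKO library, beside 13.9%, or 12 for DKO 1 and 2 alone, beside 22.4%. Blm, a RecQ helicase, had 2.80, 2.83 and 3.01 CPM in DKO, against 6.27, 6.39 and 5.21 CPM in WKO (log2 fold change -1.01 ± 0.30 SE with an adjusted p of 0.216, and -1.05 ± 0.36 SE with 0.222 in the 11-library fit), and Brca1 had 3.97, 5.14 and 3.81 CPM in DKO, against 7.26, 10.7 and 6.80 CPM in WKO. Most of these repair genes are low, at under 10 CPM.

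Epithelial junction, lipid barrier and chaperone genes leaned higher. Of 28 junction and identity genes 20 were above 0, with a median of 0.28, or 0.40 in the 11-library fit, and 11 higher in every DKO library, beside 10.2% of all genes, or 18 for DKO 1 and 2 alone, beside 18.7%. Cldn4, a tight junction claudin, had 454, 294 and 379 CPM in DKO, against 46.1, 22.2 and 37.4 CPM in WKO (log2 fold change 3.45 ± 0.96 SE with an adjusted p of 0.191, and 3.44 ± 1.05 SE with 0.181 in the 11-library fit), and PKO 2 reached the same range, at 60.1, 348 and 16.2 CPM in PKO. Elf3, an epithelial transcription factor, had 96.0, 119.9 and 46.6 CPM in DKO, against 16.5, 14.9 and 20.6 CPM in WKO, and Ovol1 had 688, 402 and 458 CPM in DKO, against 156, 86.7 and 131 CPM in WKO. Of 15 barrier lipid genes tested 13 were above 0, with a median of 0.39, 0.56 in the 11-library fit and 0.64 with WKO 1 left out too. Among them Sptlc2, which starts sphingolipid synthesis, had 55.4, 53.7 and 46.1 CPM in DKO, against 33.5, 33.2 and 30.5 CPM in WKO. Of 14 heat shock genes 9 were above 0, with a median of 0.31, or 0.30 in the 11-library fit, and 6 higher and 1 lower in every DKO library, beside 10.2% and 13.9%. For DKO 1 and 2 alone 7 lay higher and 2 lower, beside 18.7% and 22.4%. Dnajb1, a co-chaperone, had 466, 392 and 261 CPM in DKO, against 185, 140.0 and 212 CPM in WKO. Of 30 interferon-stimulated genes tested 26 were above 0, with a median of 0.56, or 0.42 in the 11-library fit, and 10 higher and 1 lower in every DKO library, beside 10.2% and 13.9%. For DKO 1 and 2 alone 13 lay higher and 3 lower, beside 18.7% and 22.4%, and most lay under 10 CPM. Irf9 had 61.5, 50.2 and 46.4 CPM in DKO, against 27.8, 39.8 and 40.9 CPM in WKO.

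Cytokine and chemokine genes had a median of 0.68, with 13 of 20 above 0, but 0.36 without the library labelled DKO 3, with 11 of 20 above 0, and 0.81 without WKO 1. Wnt genes had a median of -0.48, or -0.67 without the library labelled DKO 3 and -0.18 without WKO 1. The pathway lists not described so far had medians between -0.22 and 0.24, between -0.15 and 0.36 without the library labelled DKO 3 and between -0.20 and 0.30 without WKO 1. Of these, the sign of the median changed without the library labelled DKO 3 for YAP and TAZ targets, at 0.10 and then -0.08, and without WKO 1 for hair follicle genes, given above, and Notch genes, at -0.11 and then 0.20, while MHC class I genes had 0.18 and then -0.0008. Single members differed more, such as Hk2 of the glycolysis and hypoxia list and Skil of the TGF-beta list. Their log2 fold changes were 2.09 and 1.70, with an adjusted p of 0.0984 each (edgeR). In the 11-library fit they were 2.23 and 1.76, at 0.0719 and 0.0819. In these lists 6 of 23 and 4 of 21 lay higher in every DKO library and 2 and 1 lower, beside 10.2% and 13.9% of all genes.

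Several of the remaining cell markers turned or moved with 1 library. The median was -0.16 for macrophages and neutrophils, but -2.70 without the library labelled DKO 3 and 1.24 without WKO 1. For endothelial and mural cells it was -0.42, but -1.89 without the library labelled DKO 3 and 1.53 without WKO 1. For melanocytes and Schwann cells it was -0.90, with -2.27 without the library labelled DKO 3 and -0.72 without WKO 1, and for erythrocytes -0.89, with -1.17 and -1.36. For muscle and adipocytes it was -0.96 over 5 genes, with -0.51 without the library labelled DKO 3 and -0.18 without WKO 1 over 8 genes each. The 2 Merkel cell genes tested gave -0.61, with -0.43 and -1.04, and the mammary genes -4.23, with -6.85 and -4.77.

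Among 30 hair follicle genes, Plet1 had 264, 163 and 184 CPM in DKO, against 22.2, 39.7 and 47.1 CPM in WKO (log2 fold change 2.52 ± 0.76 SE with an adjusted p of 0.216, and 2.59 ± 0.84 SE with 0.206 in the 11-library fit), while Gli2, a Hedgehog effector, had 54.2, 76.5 and 9.02 CPM in DKO libraries 1, 2 and 3, against 21.4, 14.8 and 10.95 CPM in WKO, so that the library labelled DKO 3 lay below every WKO library. Gli2 was named by the fit that leaves the library labelled DKO 3 out, so the place of that library does not test its label. Of the WWOX-binding partners, Ezr, which links membrane and actin, had 928, 951 and 640.3 CPM in DKO, against 398, 459 and 461 CPM in WKO.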
